A study of Mus musculus with 4 samples.

Results

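The Wnt/β-catenin pathway was examined at the level of E2F1 occupancy at its promoters. Of 53 listed pathway genes, 31 had at least 1 E2F1 peak overlapping the window from 1000 bp upstream to 500 bp downstream of any of their transcript starts (GENCODE M1 on mm9), with 32 peaks in all out of 4523 deposited peaks. E2F1 chromatin immunoprecipitation sequencing (ChIP-seq), in which DNA fragments bound by this RB-regulated transcription factor are pulled down with an antibody and sequenced, was performed in duplicate in each of 2 culture conditions, with biological replicates named serum replicate 1 and 2 and 2i replicate 1 and 2. Serum ESCs were mouse embryonic stem cells kept in fetal calf serum and LIF, and 2i ESCs were kept in serum-free medium with LIF, the MEK inhibitor PD0325901 ("PD") and the GSK3 inhibitor CHIR99021 ("Chiron"). Both had been adapted to their medium for over 20 days. The labels give neither the ESC line nor a genotype, and no input or unbound control was used here. Peaks hold no expression markers, so the labelled cell type was not checked.

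In the absence of a Wnt ligand, a cytoplasmic destruction complex built on the scaffolds AXIN and APC lets the kinases CK1 and GSK3 phosphorylate β-catenin, which marks it for degradation. Ligand binding to Frizzled and LRP5/6, or inhibition of GSK3 by Chiron, stops this, and β-catenin then enters the nucleus and acts with TCF/LEF factors on target genes such as Axin2 and Cdx1. In mouse ESCs this arm is known for relieving repression by TCF7L1 and so favouring self-renewal.

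To show what kind of sequence the peaks cover, short stretches of mm9 around 2 kinds of word are given, with the matched word in capitals and 10 bases on either side, read 5′ to 3′ on the strand of the match. An E2F word was any of 4 strings of letters, namely TTCGCGC or its variants, of which the first reads TTGGCGC, the next reads TTCCCGC and the last reads TTGCCGC. The word for TCF/LEF factors was CTTTGAT. Both strands were searched, up to 200 bp on either side of the centre of a peak. The E2F word of the upstream Axin2 peak, those of the 2 strongest peaks with one (Ctnnb1, Tnks2) and every TCF/LEF word in the 32 peaks are shown.
Axin2, upstream peak, E2F word: gcctctgtgaTTGGCGCggcgggatca
Ctnnb1, E2F word: cccgcgaagtTTCCCGCtggcgcggcg
Tnks2, E2F word: ggcgagcgggTTCGCGCtgcctccacc
Axin2, upstream peak, TCF/LEF word: gccggctgcgCTTTGATaaggtcctgg
Axin2, downstream peak, TCF/LEF word: ggccggcgcgCTTTGATgtgcggggcg
Tcf7, TCF/LEF word: cccgcggtgcCTTTGATgttccgaccc
Nkd1, TCF/LEF word: tccgcctcgcCTTTGATgggccgctgc
The printed stretches lie at chr11:108781667-108781693 (+ strand, untranslated exon), chr9:120842783-120842809 (- strand, intron), chr19:36908790-36908816 (+ strand, untranslated exon), chr11:108781731-108781757 (+ strand, untranslated exon), chr11:108782536-108782562 (+ strand, intron), chr11:52096860-52096886 (- strand, upstream of the transcript start) and chr8:91045160-91045186 (+ strand, upstream of the transcript start), in the same order. In the upstream Axin2 peak the 2 words do not overlap: the E2F word is centred 17 bp after the transcript start and the TCF/LEF word 81 bp after it. An E2F word was present in 8 of the 32 pathway peaks (25%, 95% Clopper-Pearson interval 11.5% to 43.4%) and in 29.8% of the 4058 other promoter peaks. The TCF/LEF word, which was added after the values had been seen, was present in 4 of the 32 (12.5%, 3.51% to 29.0%) and in 24 of the 4058 (0.591%, 0.379% to 0.879%). A match is a description of letters and not a mapped binding site, and these intervals cover counting error only. The 4 peaks with the TCF/LEF word include both Axin2 peaks, which lie at the same gene but count as separate in the interval.

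The number of reads in peaks ranged from 248878 in serum replicate 1 to 710519 in 2i replicate 1. Serum replicate 1 was thus the least precise sample, with a median of 41 reads over the 32 pathway peaks. The other serum replicate had 73.5, and the 2i replicates had 136.5 and 67. Values given are normalized counts, which are reads in a peak divided by 1 size factor per sample, and a log2 fold change is serum over 2i on log2(normalized count + 1), so that negative values are higher in 2i. The added 1 draws the fold changes of weak peaks toward 0. A peak was called at a fold change past 2 with an unadjusted p under 0.05 in limma. SE is the standard error. Nothing in the labels ties same-numbered replicates to each other. The limma p-values rest on the spread between replicates of the same condition, moderated over all peaks, and cover these 4 samples only.

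A promoter peak was present at 58.5% of the 53 listed genes (95% Clopper-Pearson interval 44.1% to 71.9%). The share was 37.0% for 108 further genes of the pathway and 18.9% for the 22380 protein-coding genes of the annotation. Both lists were chosen with earlier results of these data known and are not random draws. The interval therefore covers counting error only, and the difference between these shares was not tested. By role, peaks were found at 9 of 12 receptor genes (Fzd2, Fzd3, Fzd5, Fzd6, Fzd8, Fzd9, Fzd10, Lrp5, Lrp6), 2 of 4 R-spondin receptor and receptor ubiquitin ligase genes (Lgr4, Znrf3), 5 of 7 dishevelled genes and regulators (Dvl1, Dvl3, Nkd1, Csnk1d, Csnk1e), 5 of 8 destruction complex and tankyrase genes (Axin1, Axin2, Apc, Tnks, Tnks2), 4 of 6 genes of β-catenin and its partners (Ctnnb1, Ctnnbip1, Bcl9, Pygo1) and 4 of 6 TCF/LEF and TLE genes (Tcf7, Tcf7l1, Tcf7l2, Tle1). None of the 4 listed genes for ligands and their secretion (Wnt3, Wnt5a, Wnt7b and the acyltransferase Porcn) had one, and 1 of 2 secreted inhibitors (Sfrp1) and 1 of 4 target transcription factors (Cdx1) did. The other genes without a promoter peak were Fzd1, Fzd4, Fzd7, Lgr5, Rnf43, Dvl2, Nkd2, Gsk3a, Gsk3b, Csnk1a1, Bcl9l, Pygo2, Lef1, Tle3, Dkk1, Sp5, T and Cdx2. Neither gene for GSK3, the kinase that Chiron inhibits, was thus among those marked.

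The 22 genes without a peak had promoter windows with a median ratio of observed to expected CpG of 0.698 (range 0.413 to 0.989), against 0.791 (0.637 to 1.06) for the 31 genes with one, taking the transcript start with the highest ratio in each gene. The ranges overlap. Absence of a peak means that none was shared by the replicates of a condition, and not that E2F1 was absent.

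The pathway peaks were of ordinary strength among promoter peaks. Their median mean normalized count over the 4 samples was 71.2 (quartiles 52.7 and 101), beside 65.4 (38.0 and 114) for the other promoter peaks, and per kb of peak length it was 138 beside 128. They lay close to the starts, with a median distance between peak centre and nearest start of 62 bp, beside 92 bp. The centre fell in an untranslated exon at 18 peaks, in coding sequence at 6, upstream of the transcript start at 5 and in an intron at 3. Their median GC content within 200 bp of the centre was 77.8%, beside 75.6%.

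**Figure D1:**
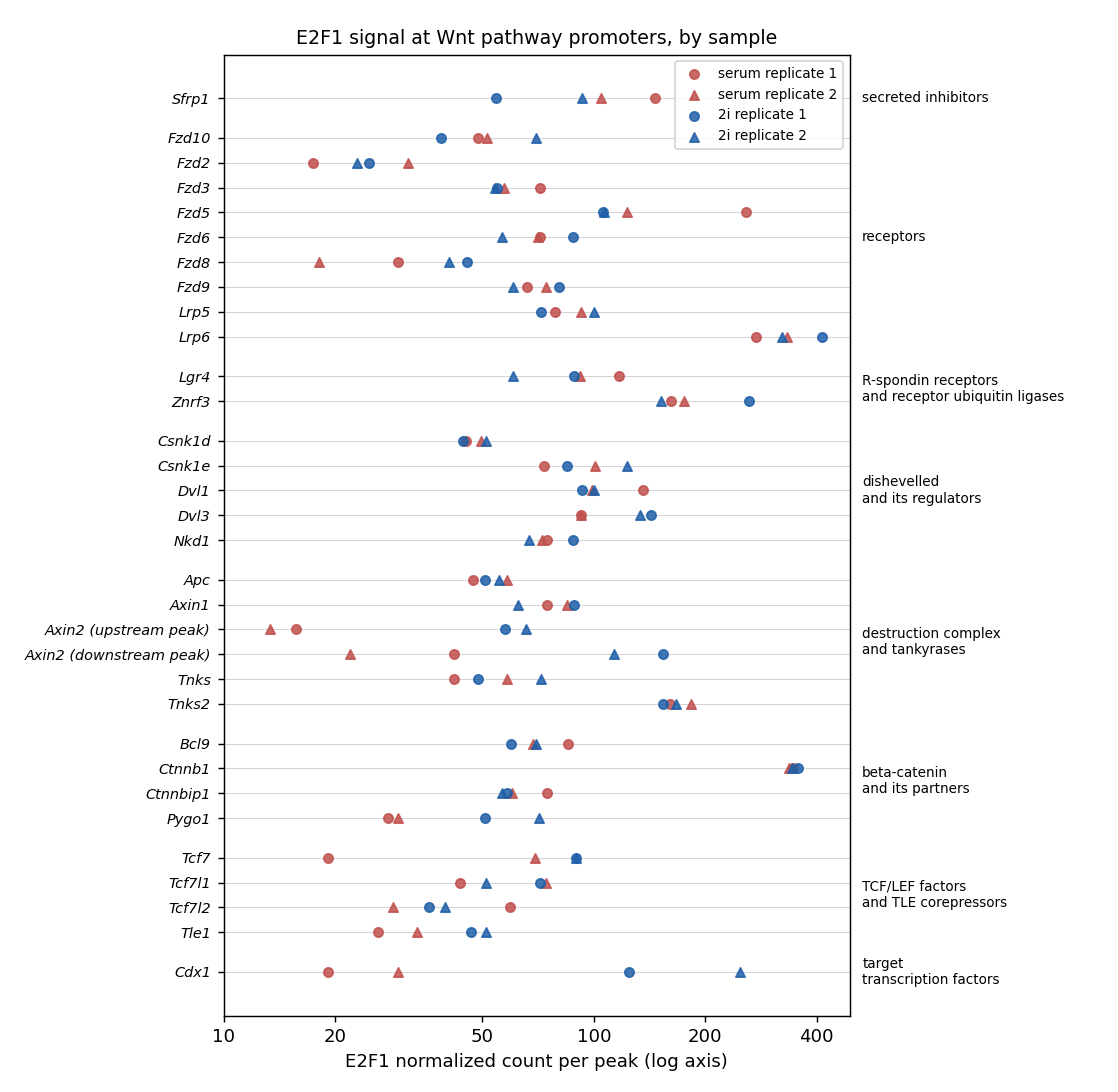
E2F1 normalized count (x axis, log scale) at each of the 32 promoter peaks of the pathway, grouped by role, with 1 point per sample (serum in red, 2i in blue, circles for replicate 1 and triangles for replicate 2). Ctnnb1 and Lrp6 carry the most signal in all 4 samples, while the blue points lie to the right of the red ones by the widest margins at Cdx1 and at the Axin2 peaks.

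By the mean over the 4 samples, the strongest signal was at the gene for β-catenin itself. The Ctnnb1 peak (chromosome 9, 120842385 to 120843066) had a normalized count of 345 and 337 in serum and of 357 and 342 in 2i. These 4 values lie within a narrow band and the conditions overlap, and the log2 fold change was -0.03 (95% confidence interval -0.58 to 0.51, limma). Its mean was above that of 97.5% of the other promoter peaks. The peak of Lrp6, a co-receptor for Wnt ligands, followed (chromosome 6, 134516468 to 134517499) with 274 and 333 in serum and 414 and 322 in 2i. In 2i alone, the mean was higher at Lrp6 (368) than at Ctnnb1 (349). Per kb of peak length, Ctnnb1 had 507 and Lrp6 325. Znrf3, whose protein removes Frizzled receptors from the cell surface, had 162 and 175 in serum and 263 and 152 in 2i. Tnks2, a tankyrase that marks AXIN for degradation, had 160 and 183 in serum and 154 and 167 in 2i. None of these 4 differed between the conditions beyond the replicate spread, with log2 fold changes from -0.27 to 0.09.

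Serum and 2i were compared at each peak to ask where E2F1 occupancy at the pathway differs between the media. These differ in serum, basal medium, PD and Chiron together, whose effects cannot be told apart. In limma, 5 of the 32 pathway peaks were called, and all 5 were higher in 2i: Cdx1, both Axin2 peaks, Tcf7 and Pygo1. This is 15.6% of the pathway peaks, beside 10.3% called in either direction and 5.48% called higher in 2i among all 4523 peaks (9.44% and 5.42% among the other promoter peaks). After Benjamini-Hochberg adjustment over all peaks, 3 of the 5 remained, at Cdx1 and Axin2. Among all peaks 1.46% were called after adjustment, 0.31% higher in 2i and 1.15% higher in serum, and among the other promoter peaks 1.33%, of which 0.271% higher in 2i and 1.06% higher in serum. No pathway peak was called higher in serum by limma, edgeR or DESeq2, where limma called 4.82% of all peaks and 4.02% of the other promoter peaks. An unadjusted limma p under 0.05 was reached by 8 pathway peaks (25%), 2 of them higher in serum. The shares were 17.8% of all peaks and 17% of the other promoter peaks. A peak shared by the replicates of either condition entered the peak set. Peaks called higher in 2i can therefore be there through 2i alone, and which condition supplied a peak is not given.

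The median log2 fold change of the 32 peaks was -0.03, beside -0.05 for the other promoter peaks. The 27 peaks not called ran from -0.86 to 0.79, a range that the threshold of the call limits. The replicate values were fully separated between the conditions at 8 pathway peaks with more signal in 2i (25%, beside 24.4% of all peaks and 25.1% of the other promoter peaks). The reverse held at 5 pathway peaks (15.6%, beside 24.9% and 23.8%). These shares are close to or below the background. With 2 samples against 2, an exact permutation test on 1 peak has a smallest two-sided p of 0.333, and the calls use a variance that limma estimates over all peaks together.

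**Figure D2:**
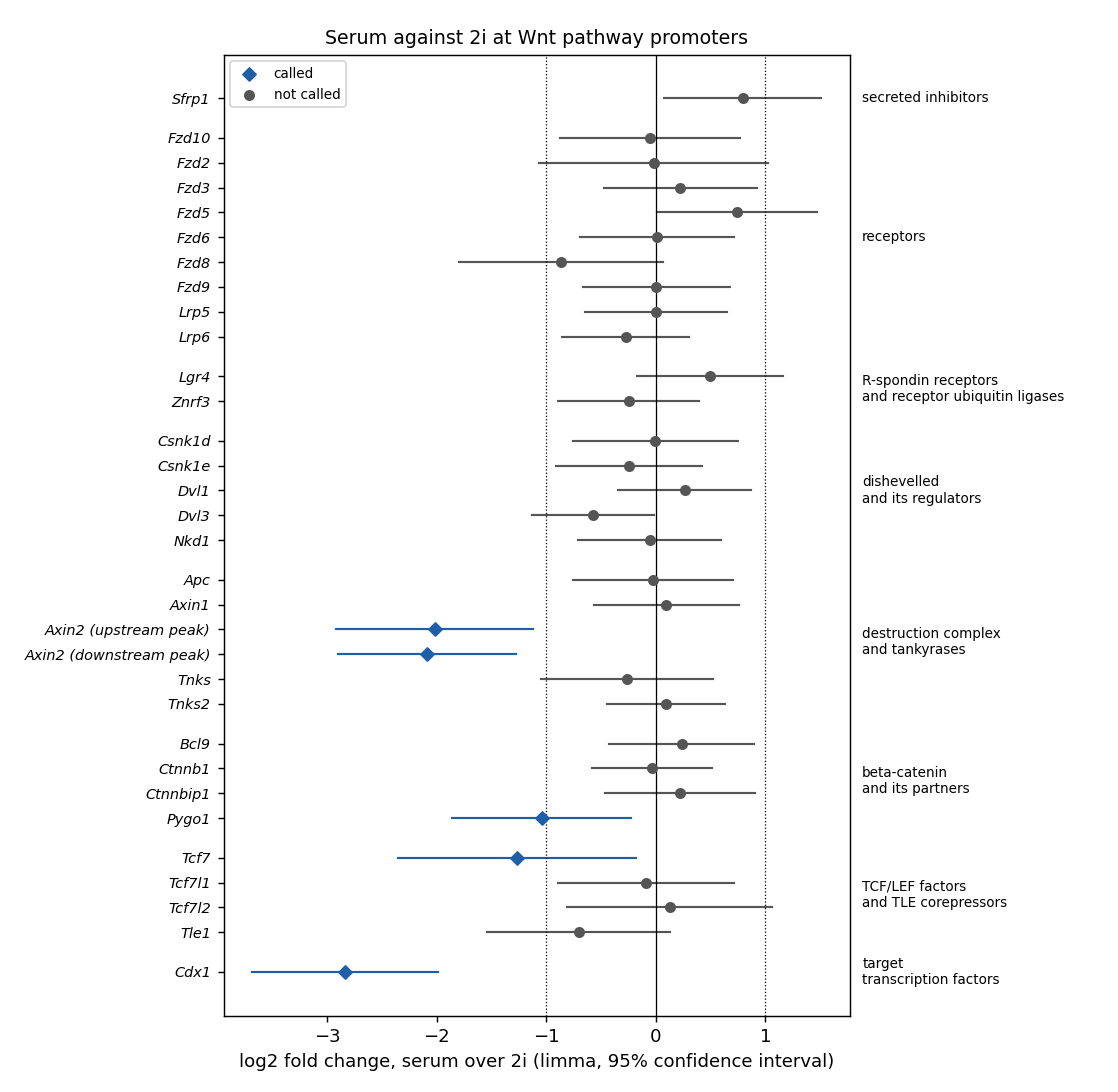
Log2 fold change of serum over 2i (x axis) at the 32 pathway peaks with the 95% confidence interval from limma, grouped by role. Blue diamonds are the 5 called peaks, grey circles the 27 not called, and dotted lines mark a fold change of 2. The intervals of Cdx1 and of the Axin2 peaks lie wholly below -1, and most others cross 0.

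The widest difference was at Cdx1, a caudal homeobox gene that is a known direct target of Wnt signaling. Its peak (chromosome 18, 61195372 to 61196120, with the centre 107 bp into the gene, in coding sequence) had 19.2 and 29.5 in serum and 125 and 248 in 2i. Every 2i value was above both serum values, although the 2i replicates lay apart. The mean was 24.4 ± 7.34 in serum and 187 ± 87.3 in 2i (SD, 2 replicates each), which is 7.66-fold higher in 2i. On the log2 scale the fold change was -2.84 (SE 0.39, limma adjusted p = 0.00867). Neither an E2F word nor the TCF/LEF word was found within 200 bp of its centre, which is less than the whole peak. The promoter window of Cdx1, from 1000 bp upstream to 500 bp downstream of its start, held 2 E2F words. Of the other target transcription factor genes, Cdx2, Sp5 and T had no promoter peak.

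Axin2 encodes an AXIN scaffold and is itself induced by β-catenin, in a negative feedback loop. It was the 1 gene of the list with 2 promoter peaks, whose centres lay 947 bp apart. The upstream peak (chromosome 11, 108781465 to 108781865) was centred 2 bp after a transcript start. It had 15.7 and 13.3 in serum, from 9 and 14 reads, and 57.7 and 65.7 in 2i, from 103 and 63 reads. The 2i values lay well above those in serum. Limma gave a log2 fold change of -2.02 (SE 0.41, adjusted p = 0.0382), and the mean was 4.25-fold higher in 2i. The downstream peak (108782377 to 108782848) was centred in an intron, 38 bp before the nearest annotated transcript start. It had 41.8 and 21.9 in serum and 153 and 114 in 2i. The conditions again did not overlap, with a log2 fold change of -2.09 (SE 0.37, limma adjusted p = 0.0240) and a mean 4.19-fold higher in 2i. The peaks belong to the same gene and are not independent of each other. Each holds a CTTTGAT, and the upstream one also an E2F word.

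The calls at Cdx1 and Axin2 did not depend on a single sample at an unadjusted p, although the adjusted p did. With each sample left out in turn, the log2 fold change ran from -3.33 to -2.34 at Cdx1, from -2.12 to -1.91 at the upstream Axin2 peak and from -2.54 to -1.64 at the downstream one, and all were called. The adjusted limma p then ran from 0.0213 to 0.0879, from 0.0810 to 0.247 and from 0.0693 to 0.152. In these fits the condition with a lone sample is assumed to vary like the other. With all 4 samples and eBayes without a trend, the adjusted limma p was 0.0623 at Cdx1. It was 0.0623 and 0.0766 at the upstream and downstream Axin2 peaks, so in that setting the calls held only at an unadjusted p.

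Axin1 encodes the other AXIN scaffold and is not known as a Wnt target. Its peak (chromosome 17, 26275577 to 26276148) had 74.9 and 84.8 in serum and 88.5 and 62.6 in 2i, and the log2 fold change was 0.10 (95% confidence interval -0.57 to 0.76, limma). Apc, which encodes the other scaffold of the complex, had 47.0 and 58.1 in serum and 50.9 and 55.3 in 2i, a log2 fold change of -0.02 (-0.75 to 0.71). In both genes the conditions overlap, and the intervals leave out a 2-fold change in either direction. The peak of Tnks, the other tankyrase, had a mean normalized count of 55.2 and a log2 fold change of -0.26 (-1.04 to 0.52).

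Among the TCF/LEF factors, which bring β-catenin to DNA, Tcf7 was called. Its peak (chromosome 11, 52096503 to 52096980) had 19.2 and 69.6 in serum and 89.6 and 89.7 in 2i. The 2i replicates were nearly equal, while the serum replicates lay 11 reads against 73 reads apart. Its log2 fold change was -1.26 (SE 0.50, limma adjusted p = 0.217). Without serum replicate 1, the shallowest sample, it became -0.36 and the call was lost, as it was without either 2i replicate (-1.27 and -1.26). The peak was not called by edgeR (-0.93) or DESeq2 (-0.97) on recovered reads, nor by limma with eBayes without a trend (-1.26). With the replicate block it passed adjustment (adjusted p = 0.0216, limma), but this block pairs samples by number although nothing ties them to each other. Tcf7l1, the repressor among these factors in ESCs, had 43.6 and 74.3 in serum and 71.7 and 51.1 in 2i (log2 fold change -0.09, 95% confidence interval -0.89 to 0.71). Tcf7l2 had 59.2 and 28.6 in serum and 35.8 and 39.6 in 2i (0.13, -0.81 to 1.06). In both the serum replicates differed more from each other than the conditions did. Tle1, a Groucho-type corepressor, had 26.1 and 33.4 in serum and 46.5 and 51.1 in 2i, without overlap, and was not called (log2 fold change -0.70, adjusted p = 0.355, limma).

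Pygo1 encodes a nuclear partner of β-catenin that binds through BCL9. Its peak (chromosome 9, 72773047 to 72773568) had 27.9 and 29.5 in serum and 50.9 and 70.9 in 2i. The conditions did not overlap, and the log2 fold change of -1.04 (SE 0.37, limma adjusted p = 0.181) was just past the threshold. Without 2i replicate 2 it became -0.81 and the call was lost, as with a pseudocount of 8 (-0.89). Bcl9 itself had a mean normalized count of 70.9 and a log2 fold change of 0.24. Ctnnbip1, an inhibitor of the binding of β-catenin to TCF factors, had a mean of 62.4 and a log2 fold change of 0.22. Neither was called.

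None of the 9 receptor peaks was called. Their log2 fold changes ran from -0.86 at Fzd8 to 0.74 at Fzd5, with a median of 0.0015. The Fzd5 peak (chromosome 1, 64783930 to 64784457) had 258 and 123 in serum and 106 and 106 in 2i. Serum replicate 1 stood apart from the other 3 samples, and the log2 fold change of 0.74 (adjusted p = 0.271, limma) became 0.21 without it. Without serum replicate 2 it was 1.27 and the peak was called. The Fzd8 peak had 29.6 and 18.1 in serum and 45.3 and 40.7 in 2i (adjusted p = 0.312, limma), and it was called, at -1.20, without serum replicate 1. The Fzd8 peak had a mean normalized count of 33.4 and the Fzd5 peak 148. The other Frizzled peaks had 24.1 at Fzd2, 52.2 at Fzd10, 59.4 at Fzd3, 70.4 at Fzd9 and 71.5 at Fzd6. The co-receptor gene Lrp5 had 85.8, beside 336 at Lrp6. Fzd10 is annotated under a pair of gene identifiers whose starts share 1 peak, which was counted once.

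Sfrp1, a secreted protein that sequesters Wnt ligands, had the highest positive log2 fold change of the list. Its peak (chromosome 8, 24521825 to 24522373) had 146 and 105 in serum and 54.3 and 92.8 in 2i. Both serum values were above both 2i values, but the log2 fold change of 0.79 (SE 0.33, limma adjusted p = 0.234) did not reach the threshold. It was called without serum replicate 2 (1.03) or without 2i replicate 2 (1.18). Lgr4, a receptor for R-spondins, had 117 and 91.5 in serum and 88.5 and 60.5 in 2i (log2 fold change 0.49, adjusted p = 0.421, limma). Among the dishevelled genes, which carry the signal from the receptors, Dvl3 had 92.3 and 92.5 in serum and 143 and 134 in 2i, a difference of less than 2-fold (log2 fold change -0.57, adjusted p = 0.265, limma). Dvl1 had a mean normalized count of 107 and a log2 fold change of 0.26. For the kinase genes Csnk1d and Csnk1e the means were 47.6 and 95.5 and the log2 fold changes -0.0049 and -0.24. Nkd1, another feedback inhibitor that β-catenin is known to induce, had 74.9 and 72.4 in serum and 87.9 and 66.8 in 2i (-0.06, 95% confidence interval -0.71 to 0.59).

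**Figure D3:**
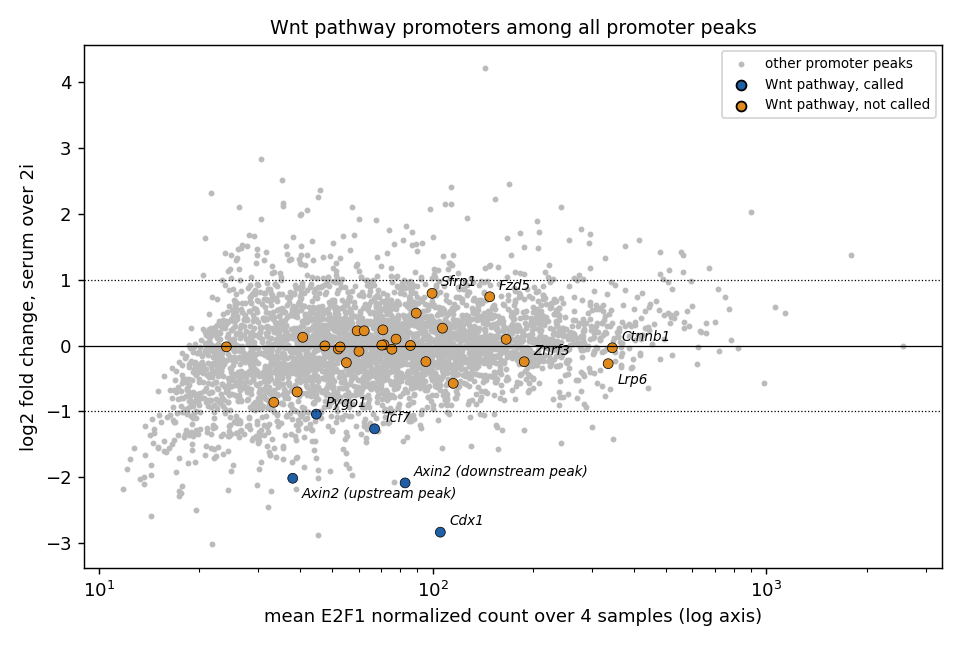
Mean E2F1 normalized count over the 4 samples (x axis, log scale) against the log2 fold change of serum over 2i (y axis) for the 32 pathway peaks (coloured) and the 4058 other promoter peaks (grey), with dotted lines at a fold change of 2. The called pathway peaks are blue and all lie below -1, with Cdx1 lowest at -2.84.

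Some of the genes without a promoter peak had an E2F1 peak elsewhere, in or within 10 kb of the gene. Lef1, a TCF/LEF factor that is commonly induced by Wnt signaling, had a peak 4317 bp before its nearest transcript start (chromosome 3, 130808853 to 130809291). It had 3.48 and 20.0 in serum and 67.2 and 32.3 in 2i. Both serum values were below both 2i values, and the peak was called with a log2 fold change of -2.30 (SE 0.70, limma adjusted p = 0.130). Without serum replicate 1 it became -1.18 and without 2i replicate 1 it became -1.78, and in both the call was lost. In serum replicate 1 the value stands for fewer reads than the floor of 3 reads that was set for a fold change (a normalized count of 5.23). A peak within 10 kb of Rnf43, which lies at the start of the neighbouring gene Supt4h1, had 12.2 and 11.4 in serum and 54.9 and 18.8 in 2i (log2 fold change -1.38, adjusted p = 0.237, limma) and was called. This call was lost without serum replicate 1 (-1.42), serum replicate 2 (-1.33) or 2i replicate 1 (-0.63) and with cyclic loess (-0.94). A peak inside Wnt3, 35933 bp from its start, was not called (log2 fold change -0.43). Peaks of this kind were looked for after the values had been seen.

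The list of 108 further genes of the pathway, such as the remaining ligands, inhibitors, coactivators, corepressors and polarity genes, held 40 genes with a promoter peak and 42 peaks. Limma called 6 of these (14.3%), with more signal in serum at 5 and in 2i at 1, beside 4.82% and 5.48% of all peaks. Higher in serum were Tle4, a Groucho-type corepressor (458 and 439 in serum, 109 and 174 in 2i, log2 fold change 1.70, adjusted p = 0.0173, limma), and the 2 peaks of Ctbp2, a transcriptional corepressor. The larger Ctbp2 peak had 453 and 409 in serum and 105 and 148 in 2i (1.78, adjusted p = 0.0121, limma), and the smaller one 157 and 154 in serum and 59.3 and 60.5 in 2i (1.36, adjusted p = 0.0347, limma). At these 3 peaks of 2 genes the serum values lay well above those in 2i. The adjusted limma p was not under 0.05 with eBayes without a trend (0.0840 at Tle4, 0.0741 and 0.0880 at Ctbp2). It was also lost at Tle4 and the larger Ctbp2 peak without serum replicate 1 (0.134 and 0.123), serum replicate 2 (0.0693 and 0.0508) or 2i replicate 1 (0.0918 and 0.0648), and at the smaller Ctbp2 peak with any sample left out (0.0940 to 0.160). The corepressor genes Aes (-0.30), Ctbp1 (0.12) and Hdac2 (-0.28) were not called. Frat1, an inhibitor of GSK3 (74.9 and 44.8 in serum, 28.6 and 13.6 in 2i), had 1.51 with an adjusted p of 0.137, and Dact1, a regulator of dishevelled (55.8 and 58.1, 26.3 and 20.9), had 1.25 with an adjusted p of 0.135 (limma). The call at Frat1 was lost without serum replicate 1 (1.14) and without 2i replicate 2 (0.9966). Fbxw11, a subunit of the ubiquitin ligase that recognises phosphorylated β-catenin, was the 1 peak of this list called higher in 2i (33.1 and 39.1, 75.6 and 77.2), with a log2 fold change of -1.07 and an adjusted p of 0.135 (limma). It was not called without serum replicate 1 (-0.95) or with a pseudocount of 8 (-0.94). The 36 other peaks had log2 fold changes from -0.72 to 0.70. They included peaks at the ligand genes Wnt3a, Wnt4, Wnt5b and Wnt9a, at Notum and Kremen1, which encode inhibitors, and at the targets Fgf4 and Klf2.

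**Figure D4:**
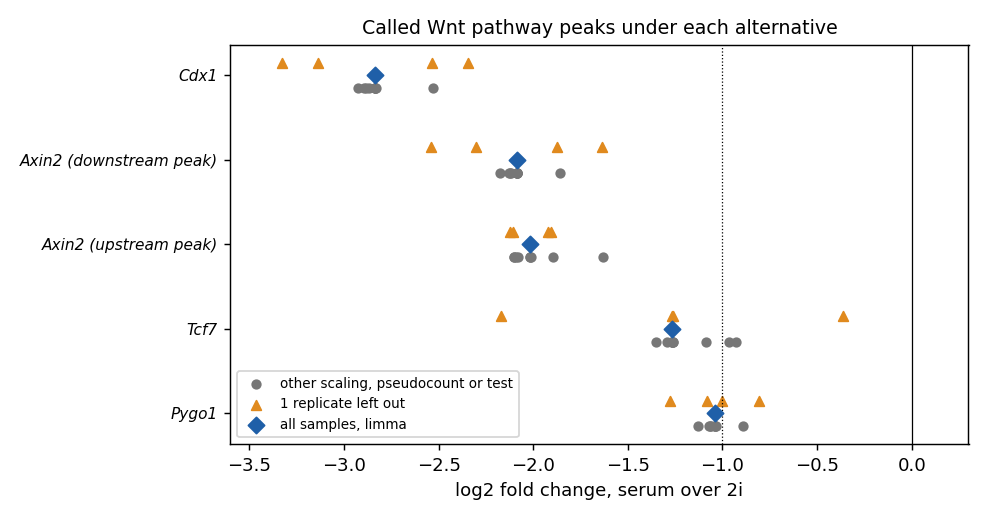
Log2 fold change of serum over 2i (x axis) at the 5 called pathway peaks, with all 4 samples in limma (blue diamonds), with 1 replicate left out (orange triangles) and with another scaling, pseudocount, filter or test (grey circles). The dotted line marks a fold change of 2. At Cdx1 and the Axin2 peaks every value lies below -1, while Tcf7 runs from -2.17 to -0.36 with a replicate left out.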

How the data were processed

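Paired-end E2F1 ChIP-seq reads had been aligned by the authors to mm9 with BWA. Duplicates (picard) and ENCODE blacklisted regions were removed, macs2 peaks of single samples were intersected between replicates, and bedtools was used to merge the conditions and to count reads. Tool versions are not given in the sources used here. What the authors deposited is a signal for each peak and sample, a read count over 1 size factor per sample. The worth of 1 read was taken from the gaps between low values in each sample, and 99.95% of 18092 values were whole multiples of it (tolerance 0.01 reads). The other 9 values, each deposited as 2 in serum, counted as 0 reads in tests on reads. Peak positions are as deposited, and whether starts count from 0 is not stated. NCBIM37 is mm9.

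All 4523 peaks were fitted in R 4.3.3 by limma 3.58.1 without a block, using log2(normalized count + 1) and an eBayes variance trend, which was tested on simulated data. The alternatives comprised pseudocounts of 0.1 and 8, a filter on a mean of 50, 3 rescalings (equal totals, median ratios, cyclic loess), eBayes without a trend, edgeR 4.0.16 and DESeq2 1.42.0 on recovered reads, a replicate block, each sample left out, other promoter windows and a narrower word window. The members and lists were chosen with earlier results of these data known. Every pathway gene with a peak is named with its level. Values in each sample are given for called peaks, the 5 strongest, the 3 widest fold changes in each direction and Axin1, Axin2, Apc, Ctnnb1, Tcf7, Tcf7l1 and Tcf7l2, with others added after their values were seen. In the further list, 2 genes matched under an older symbol. Intervals are at 95%.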

Additional observations from a re-analysis of the deposited data

How the results depend on the processing

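With all 4 samples, the 5 pathway peaks called higher in 2i became 3 with a minimum mean normalized count of 50, which leaves the upstream Axin2 peak and Pygo1 out of the test, while the calls among all peaks in either direction went from 466 to 188. They were 4 or 5 under the other alternatives, the replicate block included (5). The 3 calls after adjustment became 0 with eBayes without a trend, where 4 peaks were still called at an unadjusted p, and 4 with the replicate block, and they were 2 or 3 otherwise. With 1 sample left out in turn, the calls higher in 2i ran from 3 to 5, those higher in serum from 0 to 2 and the adjusted calls from 0 to 1, and the cause was not tested. Calls among all peaks then ran from 378 to 674, the highest without serum replicate 2, where the 2 serum calls arose. Same-numbered samples had a correlation of deviations of 0.048 across peaks, so the replicate numbers were not taken as pairs. The median log2 fold change of the other promoter peaks became 0.032 with the minimum mean and -0.14 after rescaling to the same total, and ran from -0.041 to -0.022 with a sample left out. For the pathway peaks the median log2 fold change became -0.117 after rescaling to the same total. It ran from -0.103 without serum replicate 2 to 0.0130 without 2i replicate 1. The median signal of the pathway peaks ran from 66.6 to 73.8 with a sample left out. An E2F word within 100 bp of the centre was present at 16.0% of the other promoter peaks and 15.6% of the pathway peaks. Of the 27 pathway peaks not called, 24 were not called under any alternative, and 15 changed the sign of their fold change with a sample left out.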

Other observations

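The 24 other promoter peaks that hold a CTTTGAT within 200 bp of the centre had a median log2 fold change of 0.01 (range -2.60 to 1.08), with 12 below 0. Of them 3 (12.5%) were called higher in 2i, at Bcat1, Ism2 and Exoc6b, and 0 were called higher in serum by limma, beside 5.42% and 4.02% of the other promoter peaks. Ism2 passed after Benjamini-Hochberg adjustment (log2 fold change -1.79, adjusted p = 0.0356, limma), while Bcat1 (-2.60, adjusted p = 0.0814) and Exoc6b (-1.70, adjusted p = 0.233) did not. At Ism2 the adjusted limma p was 0.0658 with eBayes without a trend and ran from 0.0858 to 0.211 with each sample left out. The call at Exoc6b was lost without serum replicate 1 (-0.47) or 2i replicate 1 (-1.16), with eBayes without a trend and with edgeR (-1.26), and that at Bcat1 without 2i replicate 1 (-2.71) or 2i replicate 2 (-2.48). This word was chosen after the pathway values had been seen, and no test of its share was made.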
